A study of Homo sapiens with 12 samples.

Results

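Transcript levels of 9 genes that the tumour suppressor p53 switches on after DNA damage were compared under cisplatin in ES-2, a line of human ovarian cancer cells. The genes were MDM2, PPM1D, CDKN1A, GADD45A, RRM2B, ZMAT3, SESN1, SESN2 and GDF15. They were taken by name as well-known p53 targets, with earlier results of these data known, and all 9 are among the 14029 genes of the deposited table. p53 is a transcription factor that is kept scarce in undamaged cells because MDM2, a ubiquitin ligase, marks it for destruction. When kinases sense DNA damage, p53 escapes MDM2, binds response elements near its target genes and raises genes of cell-cycle arrest, repair, metabolism and cell death. Among these are MDM2 and the phosphatase PPM1D, which act back on the pathway to switch it off. ES-2 is known to carry a missense mutation in the p53 gene, so in this line a gene of this set is a p53 target by reputation rather than by anything measured here.

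The tested cells expressed a short hairpin RNA (shRNA) against SRMS, a non-receptor tyrosine kinase, and their controls expressed the empty control vector, which the sample names call PLKO. Cells of both groups received 15 µM cisplatin, a drug that crosslinks DNA, for 8 hours, and poly(A) RNA of 3 samples per group was sequenced. The series has 12 samples in all. The 6 given phosphate-buffered saline in place of cisplatin are not analysed here, so no response to cisplatin was measured. The labels do not give the number of hairpins or clones behind a group, nor whether the replicates are separate cultures. The p-values therefore measure only how far these samples spread, and part of that spread may be technical.

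Values are the authors' deposited signal, in which reads were divided by the library's effective size and put on the scale of CPM, the usual read count corrected for depth. Between 28009232 and 56855428 reads stood behind each library. SRMS itself was not lower where it should have been. Its signal was 0.328, 1.07 and 0.863 in the libraries labelled SRMS shRNA, from 9, 39 and 27 reads, against 0.0669, 0.306 and 0.819 in the vector libraries, from 2, 14 and 47 reads. SRMS had a log2 fold change of 0.52 (SE 0.303), at an adjusted p of 0.168 by limma. It was 0.84 without vector replicate 3 (adjusted p 0.0281), 0.79 without SRMS shRNA replicate 1 (adjusted p 0.0245), and 0.52 with the replicate number as a block (adjusted p 0.00782), each toward more SRMS. The groups are therefore named by their labels throughout, and every direction rests on those labels. Of the epithelial markers KRT7, KRT8 and KRT18 were abundant, while PAX8, a marker of Müllerian epithelium, was close to 0, at 0.241 in the libraries labelled SRMS shRNA and 0.136 with the vector. Summed signal of 5 mesenchymal markers, led by VIM, was 7516 to 8279 in the libraries labelled SRMS shRNA and 6357 to 6896 with the vector; most of it was VIM, while ZEB1 and CDH2 had log2 fold changes of -0.47 and -0.17. Sums were 4.26 to 5.05 against 1.55 to 1.94 for 4 leukocyte markers, of which CD14 was the largest part, at 3.24 against 0.879. For 3 endothelial markers they were 5.88 to 8.36 against 14.8 to 16.8. Most of that was CDH5, at 6.12 against 15.2, while PECAM1 was at 0.393 against 0.211 and KDR at 0.649 against 0.672. For 3 fibroblast markers they were 820 to 826 against 1240 to 1243, of which nearly all was COL1A1, while FAP had a log2 fold change of 0.68. No measured marker was at 0 in every library, and the part of these differences in the values of the p53 targets was not tested.

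The 9 genes did not move one way. GADD45A and CDKN1A, both genes of cell-cycle arrest, were higher in the libraries labelled SRMS shRNA, while MDM2 and PPM1D, the negative regulators of p53, were lower, as were ZMAT3 and SESN2. RRM2B, SESN1 and GDF15 did not pass the test, which was limma on log2(signal + 0.5), with p-values adjusted by Benjamini and Hochberg's method over the 14029 genes and 0.05 as the threshold. Of the 9, 2 rose and 4 fell. Across all genes the same test called 56.8%, with 26.6% higher and 30.2% lower, so a count of 6 in 9 is near what the whole table shows. The groups did not overlap for 8 of the 9 genes, against 62.7% of all genes. The median log2 fold change of the 9 was -0.20 and that of all genes 0.0031, while the median size of the change, whatever its sign, was 0.32 for the 9 and 0.23 for all genes.

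**Figure D1:**
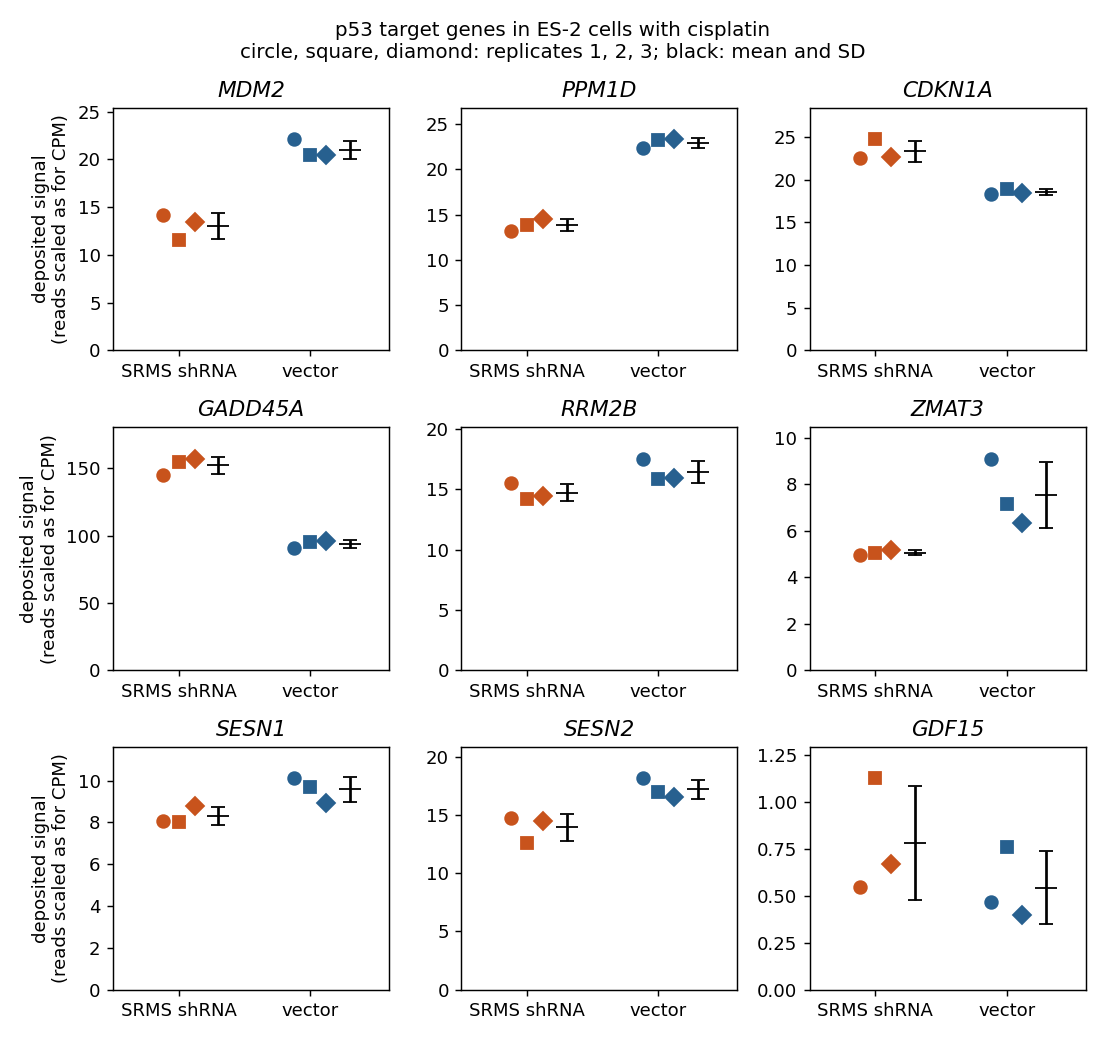
Deposited signal (reads on the CPM scale) of each of the 9 p53 target genes in every cisplatin library, 1 panel per gene, with the 3 libraries labelled SRMS shRNA left of the 3 vector libraries; points are libraries and bars are group means with SD. GADD45A and CDKN1A lie higher and MDM2, PPM1D, ZMAT3 and SESN2 lower in the libraries labelled SRMS shRNA, and GDF15 is the gene whose groups overlap.

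p53 recognises a pair of decamers, sites of 10 bases,, each with an invariant C and G around its centre. For 7 of the 9 genes RefSeq promoter windows of GRCh38.p14, from 250 bases before to 50 after each transcript start, were searched on both strands for 2 adjoining decamers with no spacer (the consensus p53 response element), keeping those with all 4 invariant bases and counting how many of the 20 bases matched. The best matches within these windows are shown, and response elements outside the windows were not searched. Capitals mark the invariant C and G of each decamer, and each sequence is written 5′ to 3′ on its own strand.
MDM2: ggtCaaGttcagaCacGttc
SESN1: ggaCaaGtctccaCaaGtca
GDF15: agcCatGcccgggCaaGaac
ZMAT3: gggCctGctccgcCaaGcac
The MDM2 match, at chr12:68808923-68808942 on the plus strand, fits 18 of 20 bases and begins 94 bases before a start site inside the gene, that of its second promoter. At least 18 matching bases were found for 0.318% of the 11313 genes with a window. SESN1, at chr6:109009018-109009037 on the minus strand, and GDF15, at chr19:18386186-18386205 on the plus strand, fit 17 bases, which 1.55% of genes reached. ZMAT3, at chr3:179071873-179071892 on the minus strand, fits 16 bases, which 5.98% of genes reached. The best match was 15 bases for CDKN1A, reached by 17.1% of genes, 13 for PPM1D and 11 for SESN2. The better matches belong to genes that fell (MDM2, ZMAT3) and to genes that did not pass the test (SESN1, GDF15). GADD45A and RRM2B had no window and were not searched. Of the genes that rose only CDKN1A was searched, so the matches cannot be compared with the direction of change. A match of letters is a description of these windows and not a measurement of binding.

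MDM2 was measured at 14.2, 11.5 and 13.4 in the libraries labelled SRMS shRNA, against 22.1, 20.4 and 20.5 in the vector libraries. Every library labelled SRMS shRNA lay below every vector library, and replicate 2 was the lowest. MDM2 fell by 0.67 on the log2 scale (SE 0.0812, 95% interval -0.85 to -0.49, limma adjusted p 6.65e-05), a change larger in size than that of 91.6% of all genes. Between 389 and 420 MDM2 reads were counted in the libraries labelled SRMS shRNA and between 661 and 1175 in the vector libraries. The gene spans chr12:68808176-68850686 on the plus strand, where the gene for carboxypeptidase M overlaps it on the other strand. How the authors' counting treated strand is not given in the sources used here.

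PPM1D encodes WIP1, a phosphatase that p53 induces and that removes the activating phosphates from p53 and from the damage kinases. Its signal was 13.2, 13.9 and 14.5 in the libraries labelled SRMS shRNA, against 22.3, 23.2 and 23.3 with the vector. The groups stood well apart, with little spread inside either. PPM1D fell by 0.71 on the log2 scale (SE 0.0604, 95% interval -0.84 to -0.57, limma adjusted p 6.69e-06). Both negative regulators of p53 thus fell to about the same extent, and their ratio within a library hardly differed: 0.944 ± 0.123 MDM2 reads were counted per PPM1D read in the libraries labelled SRMS shRNA and 0.917 ± 0.0645 with the vector (SD, n = 3 each).

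CDKN1A encodes p21, the inhibitor of cyclin-dependent kinases through which p53 halts the cell cycle. Its signal was 22.6, 24.7 and 22.6 in the libraries labelled SRMS shRNA, against 18.3, 18.9 and 18.4 with the vector. All 3 libraries labelled SRMS shRNA lay above all vector libraries, replicate 2 the farthest. The log2 fold change of 0.32 (SE 0.0586, 95% interval 0.19 to 0.45, limma adjusted p 0.00095) was the smallest increase among the called members. GADD45A encodes a small protein that binds p21 and PCNA and activates the stress kinase MAP3K4, and other factors besides p53 are known to induce it. It had 145, 155 and 157 in the libraries labelled SRMS shRNA and 90.8, 95 and 96.1 in the vector libraries. The groups were far apart relative to their spread, and GADD45A rose by 0.69 on the log2 scale (SE 0.0418, 95% interval 0.60 to 0.79, limma adjusted p 9.28e-07), a change larger in size than that of 92.4% of genes.

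Ratios of reads taken within a library do not depend on how libraries were scaled, and are given here as a description. They are not corrected for the trend of fold change with transcript length and GC content described below. The pairs were chosen after their values were seen, so the ratios add no evidence to the calls above. CDKN1A had 1.59, 2.15 and 1.68 reads per MDM2 read in the libraries labelled SRMS shRNA, against 0.828, 0.926 and 0.90 with the vector. p21 transcripts were thus read more often than MDM2 transcripts in every library labelled SRMS shRNA and less often in every vector library. GADD45A had 11, 11.1 and 10.8 reads per PPM1D read in the libraries labelled SRMS shRNA, against 4.07, 4.10 and 4.12 with the vector. The 2 arrest genes did not rise equally, since 0.153 ± 0.00837 CDKN1A reads were counted per GADD45A read in the libraries labelled SRMS shRNA and 0.197 ± 0.00519 with the vector.

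**Figure D2:**
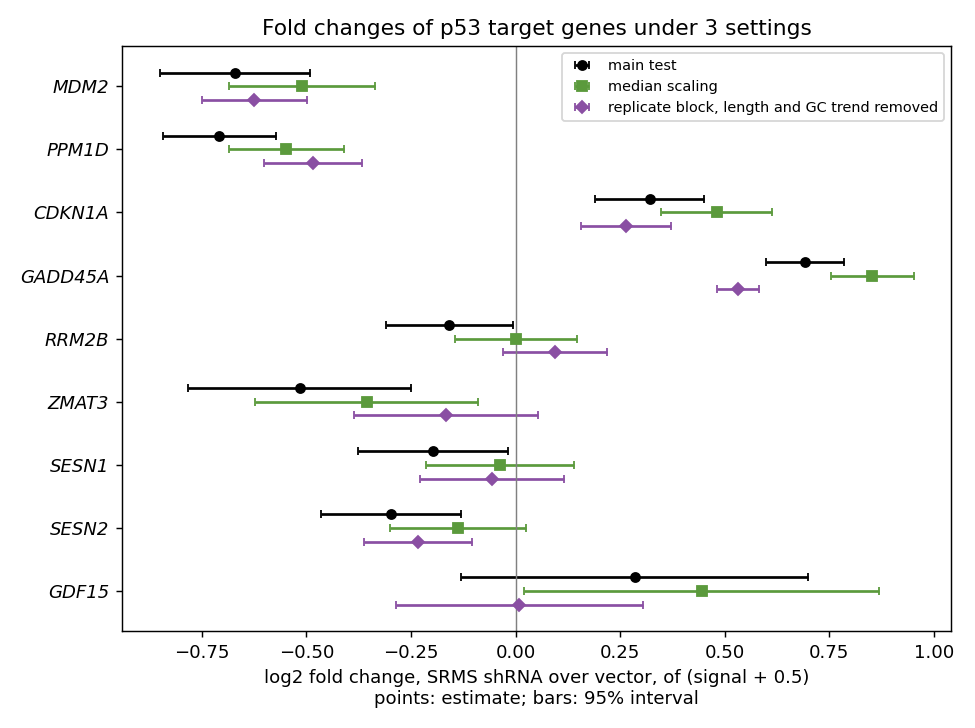
Log2 fold change of each p53 target gene, libraries labelled SRMS shRNA over vector, with 95% intervals from limma, in 3 settings. These are the deposited scaling, median scaling (the same median log2 value in every library), and the replicate block with the trends over transcript length and GC content removed. GADD45A and CDKN1A stay right of 0 and MDM2 and PPM1D left of 0 in all 3, while RRM2B lies at -0.16 in the deposited scaling and at 0.094 after the correction.

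ZMAT3 encodes a zinc-finger protein that binds RNA and shapes splicing and transcript decay as part of tumour suppression by p53. It had 4.96, 5.03 and 5.18 in the libraries labelled SRMS shRNA, against 9.10, 7.16 and 6.33 in the vector libraries. The libraries labelled SRMS shRNA lay together below a widely spread vector group, in which replicate 1 was the highest. ZMAT3 fell by 0.52 on the log2 scale (SE 0.12, 95% interval -0.78 to -0.25, limma adjusted p 0.00409). The call was lost once the trend of fold change with transcript length and GC content was removed (log2 fold change -0.17, limma adjusted p 0.177, with the replicate block).

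SESN1 and SESN2 encode sestrins, which restrain the growth kinase mTORC1 through the GATOR complexes and limit oxidative damage. SESN2 can be induced by the stress factor ATF4 as well as by p53. Its signal was 14.7, 12.6 and 14.5 in the libraries labelled SRMS shRNA, against 18.1, 16.9 and 16.6 with the vector. No library overlapped, and SESN2 fell by 0.30 on the log2 scale (SE 0.0757, 95% interval -0.47 to -0.13, limma adjusted p 0.0068). The call was lost under median scaling (-0.14, limma adjusted p 0.126) and under quantile scaling (-0.13, 0.142). SESN1 had 8.06, 8.03 and 8.79 in the libraries labelled SRMS shRNA and 10.1, 9.71 and 8.94 in the vector libraries. The closest libraries of the groups nearly met, and the log2 fold change of -0.20 (SE 0.0804, 95% interval -0.38 to -0.018) had an adjusted p of 0.0579.

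RRM2B encodes p53R2, the ribonucleotide reductase subunit that supplies DNA building blocks for repair outside S phase. It had 15.5, 14.2 and 14.4 in the libraries labelled SRMS shRNA, against 17.5, 15.9 and 16 with the vector. The groups lay side by side without overlap, and the log2 fold change of -0.16 (SE 0.068, 95% interval -0.31 to -0.0069) had an adjusted p of 0.0699. GDF15, a secreted stress cytokine, was close to the floor, at 0.547, 1.13 and 0.671 in the libraries labelled SRMS shRNA and 0.468, 0.764 and 0.401 with the vector. Only 14 to 41 of its reads were counted in any library, the groups overlapped, and its log2 fold change of 0.29 (SE 0.187, 95% interval -0.13 to 0.70, limma adjusted p 0.217) could not be told from 0.

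The replicate numbers were taken to pair libraries of the groups, and with them as a block RRM2B (limma adjusted p 0.0270) and SESN1 (0.0417) also passed the test, which made 2 higher and 6 lower among the 9, where the block called 65.3% of all genes. Median scaling, which gave every library the same median log2 value, raised the median log2 fold change of all genes by 0.16. It then stood at 0.163, against 0.0031 in the deposited scaling and 0.012 under quantile scaling. Of the 9 genes, 2 were then higher and 3 lower, SESN2 no longer being called, where this scaling called 62.5% of all genes, 6254 of them higher and 2510 lower, against 3736 higher and 4233 lower in the deposited scaling. MDM2, PPM1D, CDKN1A and GADD45A kept direction and call in all 21 alternatives run, and SESN2 in 19 and ZMAT3 in 18 of them. Each of the 6 called genes kept its call in all 6 fits that left out 1 library.

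Per kilobase of transcript, GADD45A was far above the rest in both groups, at 102 in the libraries labelled SRMS shRNA and 62.8 with the vector. CDKN1A came next in the libraries labelled SRMS shRNA, with 10.3 against 8.18 with the vector. MDM2 followed with 5.17 in the libraries labelled SRMS shRNA, against 8.32 with the vector, where its range over libraries overlapped that of CDKN1A. SESN2 (4.04 in the libraries labelled SRMS shRNA, 4.99 with the vector), RRM2B (2.98, against 3.34), PPM1D (2.90, against 4.80) and SESN1 (2.36, against 2.73) came after these. GDF15, at 0.652 against 0.454, and ZMAT3, at 0.538 against 0.80, were the lowest. In the libraries labelled SRMS shRNA the ranges of RRM2B and PPM1D overlapped, and with the vector those of SESN2 and PPM1D. These levels rest on 1 principal transcript per gene from GENCODE release 29.

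Fold changes across the whole table moved with transcript length. When genes were put in 5 classes of equal size by transcript length, the median log2 fold change of the shortest class, of median length 1258 nucleotides, was 0.23, and 1479 of its genes were called higher and 187 called lower. In the longest class, of median length 7074.5 nucleotides, it was -0.23, with 269 higher and 1527 lower. Among the p53 targets the transcripts of the called higher genes GADD45A and CDKN1A are 1496 and 2267 nucleotides long, and those of the called lower genes run from 2523 for MDM2 to 9406 for ZMAT3. Of the lower genes MDM2, the shortest by its principal transcript, fell more than SESN2 and ZMAT3. Its longest coding transcript has 12633 nucleotides, however, which would make it the longest of them. In its class by principal transcript, MDM2 had 1.71% of genes below its log2 fold change, and PPM1D had 5.73% of its own class below it. GADD45A had 93.9% of its class below it and CDKN1A 80.3%. ZMAT3 had 21.5% of its class below it, SESN2 19.2%, SESN1 27.5%, RRM2B 44.7% and GDF15 57.8%.

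With the trend over length and GC content removed and the replicate block in place, the log2 fold changes were -0.62 for MDM2 (limma adjusted p 5.1e-09), -0.48 for PPM1D (9.38e-08), 0.26 for CDKN1A (0.000122), 0.53 for GADD45A (7.33e-15) and -0.23 for SESN2 (0.00256). In all, 2 of the 9 were higher and 3 lower, where this fit called 61.9% of all genes. RRM2B was at 0.094 (adjusted p 0.179), on the other side of 0. MDM2 depends on which of its transcripts is taken: its principal one has 2523 nucleotides and its longest coding one 12633, and with the longest transcript of every gene in the correction its log2 fold change was -0.33 (limma adjusted p 4.18e-05). The share of the table's length trend in the values of these genes was not tested beyond these fits.

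**Figure D3:**
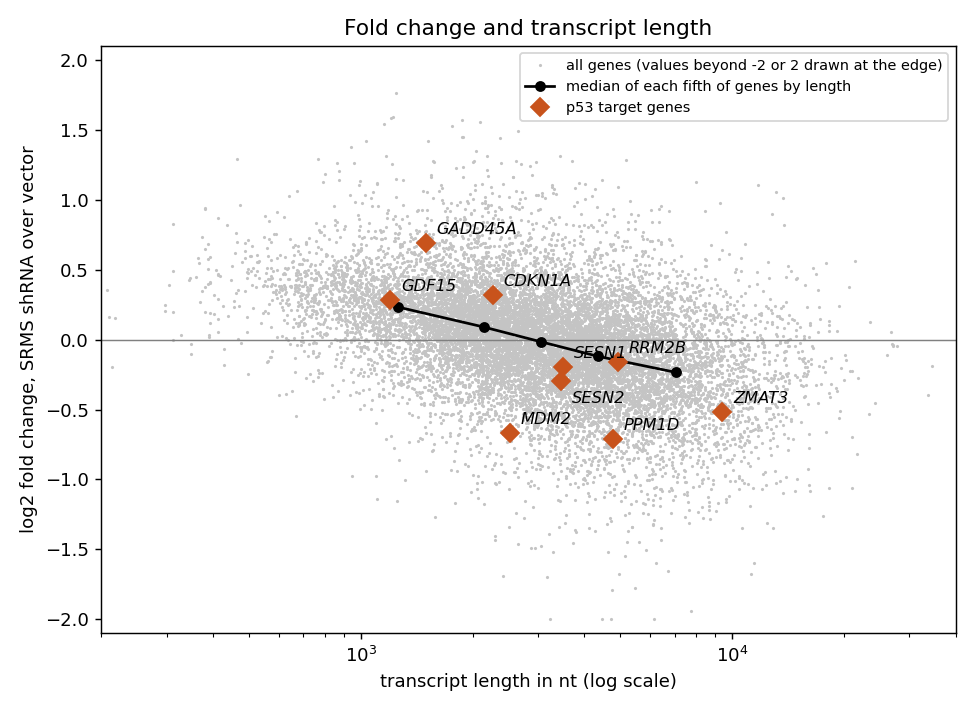
Log2 fold change, libraries labelled SRMS shRNA over vector (vertical axis), against transcript length in nucleotides (horizontal log axis), with the 9 p53 target genes as named points over all genes as grey dots and the median of each of 5 length classes as a black line. The medians run from 0.23 for the shortest to -0.23 for the longest. MDM2, placed by its principal transcript, and PPM1D lie well below the line and GADD45A well above it.

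Other p53-induced genes moved both ways as well: of 59 measured in 4 lists, 16 rose, 18 fell and 25 did not pass the limma test, with a median log2 fold change of 0.0014. These shares are near those of all genes, of which 26.6% were higher and 30.2% lower. Under median scaling, which raised the median of all genes, 27 of them were higher and 10 lower. That scaling made 6254 of all 14029 genes higher and 2510 lower. Among 17 genes of cell death, 5 rose and 6 fell (median -0.07), and 7 were higher and 3 lower under median scaling. PMAIP1, which encodes the BH3-only protein NOXA, had 157 ± 6.76 in the libraries labelled SRMS shRNA and 95.3 ± 4.41 with the vector (SD, n = 3 each), which is 0.72 higher on the log2 scale (limma adjusted p 1.22e-06). PERP, a desmosome protein, rose by 0.42, and TNFRSF10D, a decoy receptor that blunts death signals, rose by 0.32. BCL2L1, whose main product BCL-XL protects cells from death, fell by 0.47 on the log2 scale. The list's changed members thus include 2 genes known to oppose cell death.

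Among 14 genes of arrest, feedback and growth control, 4 rose and 3 fell (median 0.08), and 9 were higher and 2 lower under median scaling. For this and the next 2 lists, the shares over all genes were 26.6% higher and 30.2% lower. Median scaling made 6254 of all 14029 genes higher and 2510 lower. RAP2B, a small GTPase, had 12.7 ± 0.922 in the libraries labelled SRMS shRNA and 31.4 ± 0.829 with the vector, a log2 fold change of -1.27. SUSD6 fell by 0.67, and the antiproliferative genes TOB1 and BTG2 rose by 0.53 and 1.06. BTG2 was low throughout, at 1.28 in the libraries labelled SRMS shRNA and 0.357 with the vector. Among 10 repair genes, 2 rose and 5 fell (median -0.15), and median scaling gave 3 higher and 4 lower. RPS27L rose by 0.70, while ASCC3, a helicase subunit, and REV3L, the catalytic subunit of the translesion polymerase zeta, fell by 0.83 and 0.74. Among 18 genes of metabolism and secreted signals, 5 rose and 4 fell (median 0.02), and 8 were higher and 1 lower under median scaling. SAT1, which breaks down polyamines, rose by 0.57, ISCU, the iron-sulfur scaffold, by 0.43, TRIAP1 by 0.44 and TM7SF3 by 0.24. All genes named in these 4 lists were called also under median scaling and after the length and GC correction with the block. Median scaling put TNFRSF10D at 0.48, BCL2L1 at -0.31 and TM7SF3 at 0.40. The correction put ASCC3 at -0.50, REV3L at -0.38, SAT1 at 0.36, ISCU at 0.18 and TRIAP1 at 0.26.

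Of 24 regulators of p53, 14 fell and 5 rose (median -0.20), where 56.8% of all genes were called and 30.2% were lower. The acetyltransferases EP300 and CREBBP, which acetylate p53 and help it activate transcription, were lower by a log2 fold change of -0.98 and -1.03: EP300 had 31.5 ± 0.225 in the libraries labelled SRMS shRNA and 62.4 ± 0.413 with the vector. USP7, which removes ubiquitin from MDM2 and p53, and USP10, which removes it from p53, had log2 fold changes of -0.63 and -0.51, and the correction put USP7 at -0.38. MDM4, the relative and partner of MDM2, fell by 0.55 (limma adjusted p 0.00236), a call lost after the length and GC correction with the block. Long transcripts are common in this list, with a median of 4597 nucleotides, and after that correction, which called 61.9% of all genes, 6 were higher and 8 lower. Median scaling, which called 62.5% of all genes, gave 8 higher and 8 lower.

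**Figure D4:**
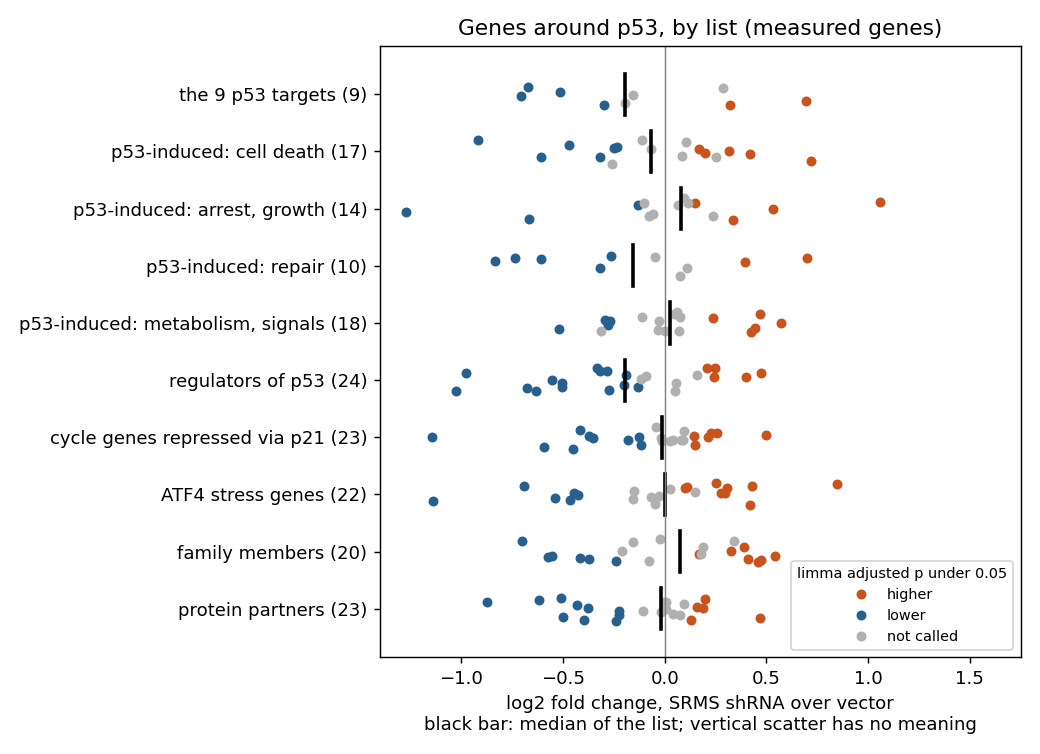
Log2 fold change, libraries labelled SRMS shRNA over vector, of every measured gene in the list of the 9 p53 targets and in 9 lists around it; each point is a gene, orange where called higher, blue where called lower and grey where not called by limma, and black bars are list medians. Every list holds genes on both sides of 0, and the lowest medians are those of the p53 targets and of the p53 regulators, both -0.20.

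Close relatives of the 9 genes did not all follow them. Of 20 measured, 7 rose, 6 fell and 7 did not pass the test, which called 56.8% of all genes. Median scaling gave 10 higher and 5 lower, where it made 6254 of all 14029 genes higher and 2510 lower. GADD45B rose by 0.33, the same way as GADD45A, and CDKN1B, which encodes the inhibitor p27, rose by 0.46, the same way as CDKN1A. Of the relatives of ZMAT3, ZMAT5 rose by 0.47 and ZMAT2 by 0.17, while ZMAT3 fell. ZMAT1, at 0.18, did not pass the test (limma adjusted p 0.275). The length and GC correction with the block put ZMAT5 at 0.15 and ZMAT2 at 0.07. ZMAT3 was then at -0.17 and not called. SESN3 had 8.63 ± 0.39 in the libraries labelled SRMS shRNA and 13.2 ± 1.82 with the vector, so it fell by 0.57, as SESN2 did. Of the phosphatases related to PPM1D, PPM1F, PPM1A and PPM1B fell by 0.70, 0.41 and 0.37, while PPM1M and PPM1J rose by 0.39 and 0.54. PPM1J was low and its groups overlapped. It had 1.64, 0.88 and 1.66 in the libraries labelled SRMS shRNA, against 0.669, 0.895 and 0.767 with the vector. PPM1B lost its call under median scaling and PPM1A after the length and GC correction. PPM1G, the most abundant of the family, had 411 ± 9.76 in the libraries labelled SRMS shRNA and 417 ± 5.71 with the vector, a log2 fold change of -0.02 that turned to 0.14 under median scaling. RRM2, the S-phase counterpart of RRM2B, had 141 ± 2.58 in the libraries labelled SRMS shRNA and 149 ± 6.55 with the vector (log2 fold change -0.08, limma adjusted p 0.128, and 0.08 under median scaling). RRM1, the large subunit that both partner with, fell by 0.24, and was at -0.08 under median scaling. The length and GC correction put SESN3 at -0.22 and GADD45B at 0.12.

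Of 23 genes whose proteins act with those of the 9, 5 rose and 10 fell, where 56.8% of all genes were called. Under median scaling, which raised the median of all genes and called 62.5% of them, 12 were higher and 8 lower. Cyclin D1 (CCND1) had 758 ± 13.4 in the libraries labelled SRMS shRNA and 548 ± 2.14 with the vector, a log2 fold change of 0.47. Cyclin E2 (CCNE2), a partner of the kinase that p21 inhibits, fell by 0.50, MAPK14, the p38 kinase downstream of GADD45A and MAP3K4, fell by 0.87, and WDR59, a subunit of the GATOR2 complex that sestrins bind, fell by 0.51. Cell-cycle genes that p53 represses through p21 did not fall together: of 23, 9 fell and 6 rose, where 30.2% of all genes were lower and 26.6% higher. Under median scaling 6 were lower and 13 higher, where 2510 of all 14029 genes were lower and 6254 higher. CDC25A, the phosphatase that activates cyclin-dependent kinases, had 36.2 ± 1.01 in the libraries labelled SRMS shRNA and 80.7 ± 2.37 with the vector, a log2 fold change of -1.15. PRC1 and TOP2A, genes of cytokinesis and chromosome untangling, fell by 0.59 and 0.35, and UBE2C, a ubiquitin-conjugating enzyme of mitosis, rose by 0.50. After the length and GC correction TOP2A was at -0.07, UBE2C at 0.19 and WDR59 at -0.26, all still called.

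The genes most like 3 of the targets across the 6 libraries were found by the root-mean-square difference of mean-centred log2 values. For MDM2 they were SUSD6 (0.0254), BRIP1 (0.0267) and PHF8 (0.0279), each with a log2 fold change of -0.67. For CDKN1A they were MECR (0.0167), GPR108 (0.0186) and PCCB (0.0188), with log2 fold changes of 0.31, 0.34 and 0.34. For GADD45A they were PMAIP1 (0.0283), HYPK (0.0289) and DNPH1 (0.0298), with log2 fold changes of 0.72, 0.68 and 0.66. SUSD6 and PMAIP1 also stand in the lists of p53-induced genes. The measure is dominated by the difference between the groups, which all these genes share with the target they were matched to.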

How the data were processed

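Stranded TruSeq libraries of poly(A) RNA were read as paired ends, per the labels' protocols. HISAT2, StringTie, edgeR, cutadapt and FastQC were used with GRCh38, per the submitters' processing notes; versions and strand setting: not given in the sources used here. Though named log CPM, the authors' deposited table holds a linear signal, with column sums of 972634 to 1046747. At least 99.99% of values in every library are a whole multiple, within 0.1 reads, of what 1 read is worth there, and reads were recovered on that basis. Of 14042 rows, 13 were duplicates of pseudoautosomal genes on Y and were dropped.

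The test was limma 3.58.1 (R 4.3.3) with a mean-variance trend on log2(signal + 0.5) over the 6 cisplatin libraries, which understates the change of low genes. Alternatives were other scalings, pseudocounts and filters, array weights, the replicate block, count tests on recovered reads with edgeR 4.0.16 and DESeq2 1.42.0, each library left out, and removal of trends with transcript length and GC content (splines, genes with a mean log2 above 1). The limma fit without a block, edgeR and DESeq2 were tried on simulated counts with known changes, without a length trend or replicate effect. The other alternatives were not simulated. Same-numbered libraries of the groups deviated together, with r of 0.486, 0.239 and 0.225 over 11353 genes; replicate 1 stood apart in both groups, while replicates 2 and 3 also correlated across numbers, with r of 0.198 and 0.202. Replicates 2 and 3 still differed beyond counting noise. For genes of 200 to 5000 reads their chi-square per gene was 1.65 in the libraries labelled SRMS shRNA and 1.79 with the vector. Pairs with replicate 1 had 5.07 and 4.78 in the libraries labelled SRMS shRNA and 3.55 and 3.56 with the vector. Replicates 2 and 3 were therefore not taken for a repeat deposit of 1 library. This spread cannot tell separate cultures from repeat preparations of 1 culture, and an alternative averages these replicates.

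The members and gene lists were chosen with earlier results of these data known. Always named were SRMS and the 9 members, then up to 4 genes with the smallest adjusted p of each list, any relative of a member, and the 3 genes most like MDM2, CDKN1A and GADD45A. The p53 gene's own transcript and 1 gene that this rule picks are not reported here.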

Additional observations from a re-analysis of the deposited data

How the results depend on the processing

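Of the 9 genes, between 5 and 8 were called over all 21 alternatives, always 2 of them higher, and between 6 and 7 with any 1 library left out. Called genes in the whole table numbered 7969, 6895 to 8324 with 1 library left out, 8058 with edgeR, 7375 with DESeq2, 9154 with the replicate block and 6076 with replicates 2 and 3 averaged as 1 sample. RRM2B turned to 0.0021 under median scaling, 0.0061 under quantile scaling, 0.094 after the length and GC correction with or without the block, and 0.084 with the longest transcripts in it; the last also turned GDF15 to -0.011. RRM2B passed the test with array weights (limma adjusted p 0.0349) and without SRMS shRNA replicate 1 (0.0324), and SESN1 without low genes (0.0447) and without the trend (0.039). GDF15 and SRMS were counted in few reads and spread widely between replicates. The cause of these changes was not tested. The replicate block, under which RRM2B and SESN1 passed, changed no other call among the 9. The correction without the block, that with the longest transcripts and the averaging of replicates 2 and 3 were added after seeing the data. The median of the 9 genes was -0.20, -0.04 under median scaling, -0.07 under quantile scaling, -0.06 after the length and GC correction, -0.15 without replicate 1 of both groups and -0.24 without vector replicate 3.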

Other observations

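SESN2 and some other targets also answer to ATF4, the factor of the amino acid and unfolded-protein stress responses, so genes of that response were described beside them. Of 22 measured, 9 rose and 6 fell in the limma test, and 13 were higher and 5 lower under median scaling, where the test called 56.8% of all genes and median scaling 62.5%. Both chains of the cystine transporter changed, in opposite directions: SLC7A11, its light chain, had 7.77 ± 0.886 in the libraries labelled SRMS shRNA and 17.7 ± 1.37 with the vector (log2 fold change -1.14), while SLC3A2, its heavy chain, had 602 ± 9.99 in the libraries labelled SRMS shRNA and 450.2 ± 13.7 with the vector (0.42). XPOT, the exportin of transfer RNA, fell by 0.69 on the log2 scale, and STC2, a secreted glycoprotein, rose by 0.29. The correction with the replicate block put XPOT at -0.39 and STC2 at 0.51. These 4 kept their call under median scaling and after the length and GC correction with the replicate block.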
